A study of Homo sapiens with 4 samples.

Results

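The genes described here are 8 components of the apoptotic machinery: the caspases CASP2, CASP6, CASP8 and CASP9, and the apoptosome and IAP genes APAF1, CYCS, XIAP and DIABLO. They were taken by name from the gene count table of the series and make up 8 of its 64253 genes. The series holds 4 RNA-seq libraries of A549, a human lung adenocarcinoma cell line. In 2 of them the cells were transfected with a plasmid for NFATc2, a calcium-responsive transcription factor. In the other 2 they were transfected with a plasmid for NFATc2M, which lacks part of the DNA-binding domain and served as the loss-of-function reference. All 4 libraries came from cells kept in OPNc-CM, the conditioned medium of HEK-293 T cells made to express osteopontin isoform c. Each value below therefore sets 1 transfected plasmid against another within the same medium. The labels number the libraries 1 and 2 within a group but name no separate cultures for them. The spread behind the p-values is thus that of these libraries and may be technical. The question asked of these genes was whether their transcript levels differed between NFATc2 and NFATc2M cells.

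Caspases are proteases that are made as inactive zymogens. In the intrinsic pathway, cytochrome c (CYCS) leaves the mitochondrial intermembrane space and binds APAF1, which assembles into the apoptosome and recruits the initiator CASP9. In the extrinsic pathway, death receptors activate CASP8, and CASP2 is activated on a separate platform, the PIDDosome. Initiators cleave executioners, of which CASP6 is described here. XIAP binds and inhibits caspases, CASP9 among them, and DIABLO (also known as Smac), once released from mitochondria, displaces XIAP from them. Most of this control acts on the proteins, which were not measured here.

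NFAT proteins bind DNA at the core motif GGAAA, so the promoters were read for it. The promoter windows were the 250 bases before each transcription start in RefSeq on GRCh38.p14, and all 8 genes had at least 1 of the 17 windows. GGAAA, on either strand, occurred in 9 of the 17 windows, belonging to 5 of the 8 genes (CASP2, CASP8, CYCS, DIABLO and XIAP), and in none of the windows of APAF1, CASP6 and CASP9. The same letters occurred in 55.6% of all 35116 promoter windows, so their presence is common in this length of sequence. The windows of CYCS and XIAP are printed because these genes had the largest fold changes of the 8, with GGAAA or its complement TTTCC in capitals. That of CYCS lies at chr7:25125261-25125510 on the minus strand, and that of XIAP at chrX:123859458-123859707 on the plus strand. CYCS has a single window, whereas XIAP has 3, and the one shown belongs to its most upstream start.
CYCS promoter: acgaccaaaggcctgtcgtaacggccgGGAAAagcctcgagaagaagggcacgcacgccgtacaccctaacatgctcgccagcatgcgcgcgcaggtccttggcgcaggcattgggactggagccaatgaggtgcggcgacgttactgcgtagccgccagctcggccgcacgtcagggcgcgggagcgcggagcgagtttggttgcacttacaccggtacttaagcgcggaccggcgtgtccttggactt
XIAP promoter: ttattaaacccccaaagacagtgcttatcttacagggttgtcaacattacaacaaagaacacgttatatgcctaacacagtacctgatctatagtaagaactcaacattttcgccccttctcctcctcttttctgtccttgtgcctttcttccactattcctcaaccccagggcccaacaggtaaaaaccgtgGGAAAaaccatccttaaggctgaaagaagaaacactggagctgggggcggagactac
In the CYCS window the motif began 223 bases before the transcription start. The window also held 1 match to TGACGT, a part of the cAMP response element (7.1% of all windows). It held 2 matches to CCAAT (32% of all windows), and both motifs were counted on either strand. None of these matches overlapped another. In the XIAP window shown, the motif began 57 bases before its start, with no match to TGACGT or CCAAT. The XIAP window starting at base 123859564 holds the same GGAAA, 163 bases before its own start, and the window starting at base 123859803 holds none. A match describes the letters only, since binding was not measured.

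All 8 genes were expressed above the filter on low counts and entered the test. The libraries held 21830690 and 23527259 gene counts in NFATc2 cells, against 21011786 and 21372469 in NFATc2M cells, and 17459 genes were tested with edgeR's quasi-likelihood test. Of these, 1508 (8.64%) passed a Benjamini-Hochberg adjusted p of 0.05, 856 (4.9%) higher and 652 (3.73%) lower in NFATc2 cells. That split depended on scaling, with 662 higher and 864 lower under upper quartile scaling, and 556 higher and 707 lower under scaling by library size. The number of calls also depended on single libraries: 584 genes passed without NFATc2 replicate 1, 318 without NFATc2 replicate 2 and 73 without NFATc2M replicate 1. The fold changes followed the GC content of the exons across genes (Pearson r = -0.46 over 17163 genes, which are not independent replicates). Called genes had a median GC content of 39.5% where they were higher and 59.9% where they were lower in NFATc2 cells, against 48.7% for all. In a fit with an offset for the dependence of every library on GC content and length, 599 of 17163 genes (3.49%) passed, 384 higher and 215 lower in NFATc2 cells, and its values are given beside those of the genes below. NFATC2 itself had 47791 and 58522 counts in NFATc2 cells, against 54601 and 52689 in NFATc2M cells (adjusted p = 0.67). Both plasmids can add to this count, so it does not tell the constructs apart. All 9 genes taken as A549 markers were detected with at least 7166 counts. Of 3 genes of the region deleted in A549, CDKN2A and CDKN2B were at 0. MTAP had 2 and 4 counts in NFATc2 cells, against 5 and 7 in NFATc2M cells. The 5 markers of HEK-293 T cells summed to 82.0 to 96.5 CPM in NFATc2 cells and 79.1 to 82.3 CPM in NFATc2M cells. Most of that sum was INA, with 67.6 and 80.3 CPM in NFATc2 cells, against 70.5 and 64.9 CPM in NFATc2M cells.

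Of the 8 genes, CYCS was higher in NFATc2 cells and 7 did not pass the test. That is 12.5%, set against 8.64% of all genes tested. This share is a description only, since the genes were chosen with earlier results of these data known. None of the 8 was lower at this threshold, while CYCS and XIAP were the 2 with an unadjusted p under 0.05 in edgeR, and DESeq2 and limma voom each called CYCS alone of the 8. Fold changes are given throughout as NFATc2 over NFATc2M on the log2 scale. They were positive for 6 genes and negative for 2. The median was 0.14, against 0.00061 over all genes tested, of which 50.1% were positive. The 6 positive genes had an exonic GC content of 39.1% (CASP8) to 45.7% (CASP6), below the 48.7% median of all genes. The 2 negative genes lay above it, DIABLO at 49.3% and CASP9 at 53.6%. With the GC content and length offset the values were 0.0016 for APAF1, 0.0051 for CASP6, 0.011 for DIABLO and -0.17 for CASP8. CASP2 had 0.16, XIAP 0.13, CYCS 0.39 and CASP9 -0.097. Whether GC content sets the direction was not tested. In 5 of the 8 genes the libraries of the 2 groups did not overlap in CPM, the counts scaled to a common library size, with NFATc2 above in CASP2, CASP8, CYCS and XIAP and below in CASP9. Such separation was found in 53.1% of all genes tested, with NFATc2 above in 27.2% and below in 26.0%. Since RNA was taken from many cells together, a change in every cell and a change in the share of cells that express a gene cannot be told apart.

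**Figure D1:**
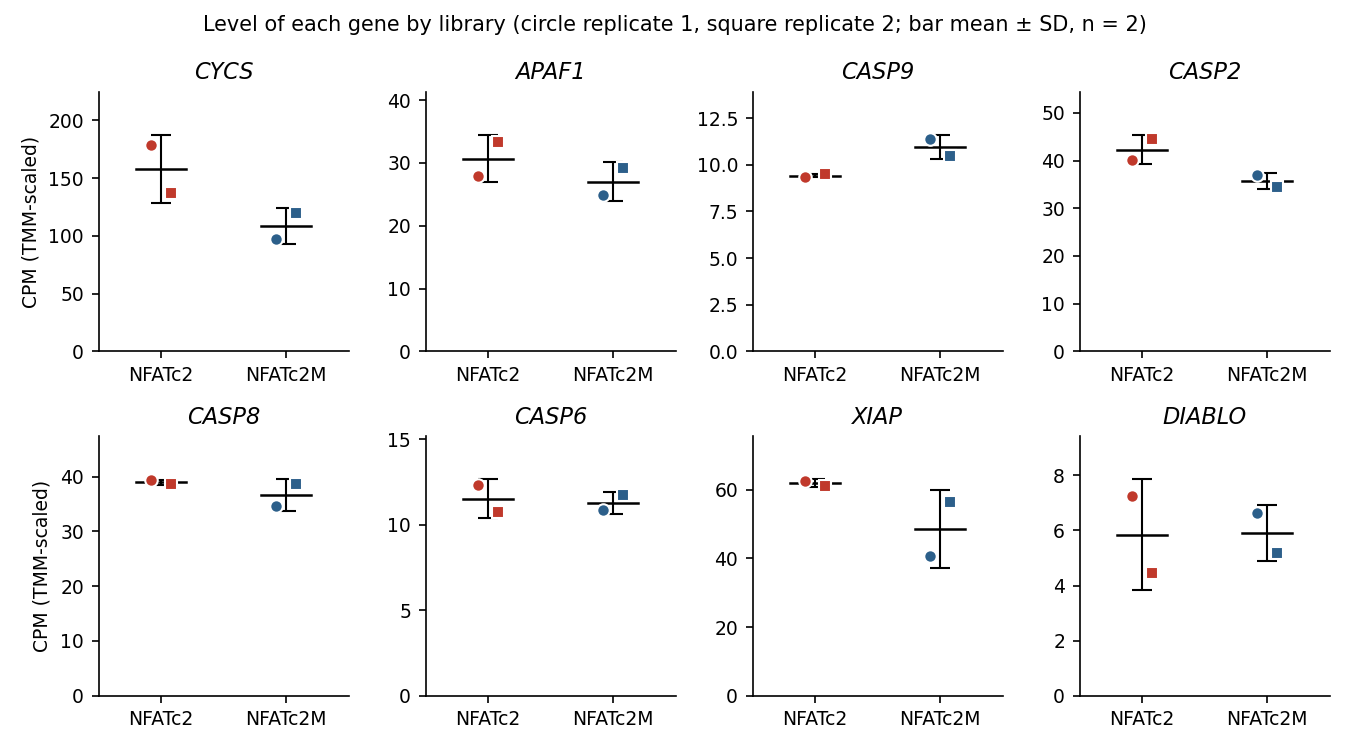
Level of each of the 8 genes in CPM on a linear axis from 0, in NFATc2 (red) and NFATc2M (blue) libraries, with replicate 1 as a circle, replicate 2 as a square, and the mean ± SD in black (n = 2 per group). Both NFATc2 libraries lie above both NFATc2M libraries for CYCS (178 and 137 CPM in NFATc2 cells, against 97.2 and 120 CPM in NFATc2M cells), while the groups overlap for APAF1, CASP6 and DIABLO.

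CYCS, which encodes cytochrome c, the electron carrier of the respiratory chain and the trigger of apoptosome assembly, lies on chr7:25118656-25125260 (minus strand, GRCh38). It had 3855 and 3173 counts in NFATc2 cells, against 2056 and 2591 in NFATc2M cells. Both NFATc2 libraries were above both NFATc2M libraries, NFATc2 replicate 1 was the highest and NFATc2M replicate 1 the lowest. The means were 158 ± 29.5 CPM in NFATc2 cells and 108 ± 15.9 CPM in NFATc2M cells (SD, n = 2 each). This was a log2 fold change of 0.54 (SE 0.12, 95% interval 0.31 to 0.77, edgeR adjusted p = 0.0011). With the GC content and length offset it was 0.39 with adjusted p = 0.095, which did not pass. The exons of CYCS have a GC content of 42.4%, below the median of all genes. The call was also lost without NFATc2 replicate 1 (log2 fold change 0.34, adjusted p = 0.20) and without NFATc2M replicate 1 (0.39, adjusted p = 0.33). CYCS has many processed pseudogenes in the genome, whose reads can be hard to place. In these libraries each of its annotated pseudogenes had at most 6 counts. These counts do not show how many reads of CYCS went uncounted or were misplaced, which was not tested.

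APAF1, the scaffold of the apoptosome, lies on chr12:98645290-98735433 (plus strand). It had 605 and 773 counts in NFATc2 cells, against 525 and 632 in NFATc2M cells, with means of 30.6 ± 3.75 CPM in NFATc2 cells and 27.0 ± 3.10 CPM in NFATc2M cells (SD, n = 2 each). Replicate 2 was the higher library in each group, and NFATc2 replicate 1 fell below NFATc2M replicate 2, so the groups overlapped. Its log2 fold change was 0.18 (SE 0.15, 95% interval -0.11 to 0.48, edgeR adjusted p = 0.50), and 0.0016 with the GC content and length offset. ANKS1B, on the opposite strand, shares 9.67% of the exonic bases of APAF1. ANKS1B had 86 and 92 counts in NFATc2 cells, against 44 and 69 in NFATc2M cells. Whether the counting used strand is not given in the sources used here, and reads in the shared bases cannot be told apart without it. Smaller overlaps on the opposite strand were MCUB over 5.04% of the exonic bases of CASP6 and CELA2B over 1.92% of CASP9. On the same strand ENSG00000289698 shares 4.74% of those of CASP8. MCUB had 468 and 448 counts in NFATc2 cells, against 421 and 491 in NFATc2M cells.

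CASP9, the initiator caspase that is activated on the apoptosome, lies on chr1:15490832-15526534 (minus strand). It was the member whose NFATc2 libraries both lay below the NFATc2M libraries, with 202 and 220 counts in NFATc2 cells, against 241 and 227 in NFATc2M cells. In CPM the means were 9.41 ± 0.093 in NFATc2 cells and 10.9 ± 0.64 in NFATc2M cells (SD, n = 2 each). Its log2 fold change was -0.22 (SE 0.20, 95% interval -0.62 to 0.19, edgeR adjusted p = 0.57), which did not pass the test, and -0.10 with the GC content and length offset. At 202 to 241 counts a library the interval still allows a difference of the size seen for CYCS in the negative direction. Expressed as a ratio of counts within a library, CYCS to CASP9 was 19.1 and 14.4 in NFATc2 cells, against 8.53 and 11.4 in NFATc2M cells. CYCS was above and CASP9 below in both NFATc2 libraries, so this ratio had to separate the groups and restates the values of the genes. The ratio of CYCS to APAF1 was 6.37 and 4.10 in NFATc2 cells, against 3.92 and 4.10 in NFATc2M cells. It therefore stood apart in NFATc2 replicate 1 alone and was nearly the same in the other 3 libraries.

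CASP2, the initiator of the PIDDosome and a caspase known for its response to errors of cell division, lies on chr7:143288215-143307696 (plus strand). It had 868 and 1031 counts in NFATc2 cells, against 780 and 747 in NFATc2M cells, or 42.3 ± 3.01 CPM in NFATc2 cells and 35.7 ± 1.66 CPM in NFATc2M cells (SD, n = 2 each). Both NFATc2 libraries were above both NFATc2M libraries. The log2 fold change of 0.25 (SE 0.14, 95% interval -0.025 to 0.52) did not pass the test (edgeR adjusted p = 0.27), and it was 0.16 with the GC content and length offset.

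CASP8, the initiator activated at death receptors, lies on chr2:201233443-201361836 (plus strand). Its counts were 849 and 897 in NFATc2 cells, against 732 and 836 in NFATc2M cells, and its means 39.0 ± 0.45 CPM in NFATc2 cells and 36.6 ± 2.85 CPM in NFATc2M cells (SD, n = 2 each). In CPM the lower NFATc2 library came to 38.65 and the higher NFATc2M library to 38.63, so the groups were separated by less than the gap between the NFATc2M libraries. The log2 fold change was 0.090 (SE 0.14, 95% interval -0.18 to 0.36, edgeR adjusted p = 0.75). It turned to -0.17 with the GC content and length offset (adjusted p = 0.45), and CASP8 had the lowest exonic GC content of the 8 genes (39.1%).

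CASP6, an executioner caspase that cleaves lamin A, lies on chr4:109688622-109703583 (minus strand). It had 266 and 249 counts in NFATc2 cells, against 229 and 254 in NFATc2M cells, and the means were 11.5 ± 1.12 CPM in NFATc2 cells and 11.3 ± 0.64 CPM in NFATc2M cells (SD, n = 2 each). The groups overlapped, with NFATc2 replicate 1 the highest library and NFATc2 replicate 2 the lowest in CPM. Its fold change was 0.029 on the log2 scale (SE 0.20, 95% interval -0.36 to 0.42, edgeR adjusted p = 0.95), and its sign changed with the scaling, to -0.0057 under the upper quartile and -0.0020 under library size.

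XIAP, an inhibitor of CASP9, lies on chrX:123859712-123913972 (plus strand). It had 1355 and 1418 counts in NFATc2 cells, against 860 and 1224 in NFATc2M cells, or 61.9 ± 1.13 CPM in NFATc2 cells and 48.6 ± 11.2 CPM in NFATc2M cells (SD, n = 2 each). The NFATc2 libraries lay close together and above both NFATc2M libraries, which were far apart. The log2 fold change was 0.35 (SE 0.13, 95% interval 0.09 to 0.60), with an unadjusted p of 0.0079 and an adjusted p of 0.073 in edgeR, so it did not pass. Its size rested on which NFATc2M library was used: it was 0.61 without NFATc2M replicate 2 (adjusted p = 0.0045) and 0.12 without NFATc2M replicate 1 (adjusted p = 0.81). With the GC content and length offset it was 0.13 (adjusted p = 0.55), and the exonic GC content of XIAP is 39.9%. As a ratio of counts within a library, XIAP to CASP9 was 6.71 and 6.45 in NFATc2 cells, against 3.57 and 5.39 in NFATc2M cells. XIAP was above and CASP9 below in both NFATc2 libraries, so this separation was fixed by the values of the genes. XIAP to CASP2, in contrast, overlapped between the groups, with 1.56 and 1.38 in NFATc2 cells, against 1.10 and 1.64 in NFATc2M cells. These ratios are given without a test, since 2 libraries against 2 cannot give a two-sided exact permutation p under 0.333.

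DIABLO, the mitochondrial antagonist of XIAP, lies on chr12:122207663-122227456 (minus strand) and had the fewest counts of the 8 genes. It had 157 and 103 counts in NFATc2 cells, against 140 and 112 in NFATc2M cells, or 5.85 ± 2.0 CPM in NFATc2 cells and 5.90 ± 1.02 CPM in NFATc2M cells (SD, n = 2 each). In both groups replicate 1 was above replicate 2, and the groups overlapped. Its log2 fold change was -0.014 (SE 0.25, 95% interval -0.51 to 0.49, edgeR adjusted p = 0.98), so a difference of up to the size seen for XIAP in either direction was not detectable with these libraries. The annotation used here places other genes over parts of DIABLO. ENSG00000284934 on the same strand shares 31.5% of its exonic bases, ENSG00000256861 on the same strand 16.4% and B3GNT4 on the opposite strand 13.9%. B3GNT4 had 703 and 821 counts in NFATc2 cells, against 755 and 707 in NFATc2M cells. ENSG00000256861 was at 0 in all 4 libraries, and ENSG00000284934 has no entry among the genes counted. The overlaps were read from GENCODE 44 and the counts were made on Ensembl 94, so how far shared bases affect the count of DIABLO was not tested.

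**Figure D2:**
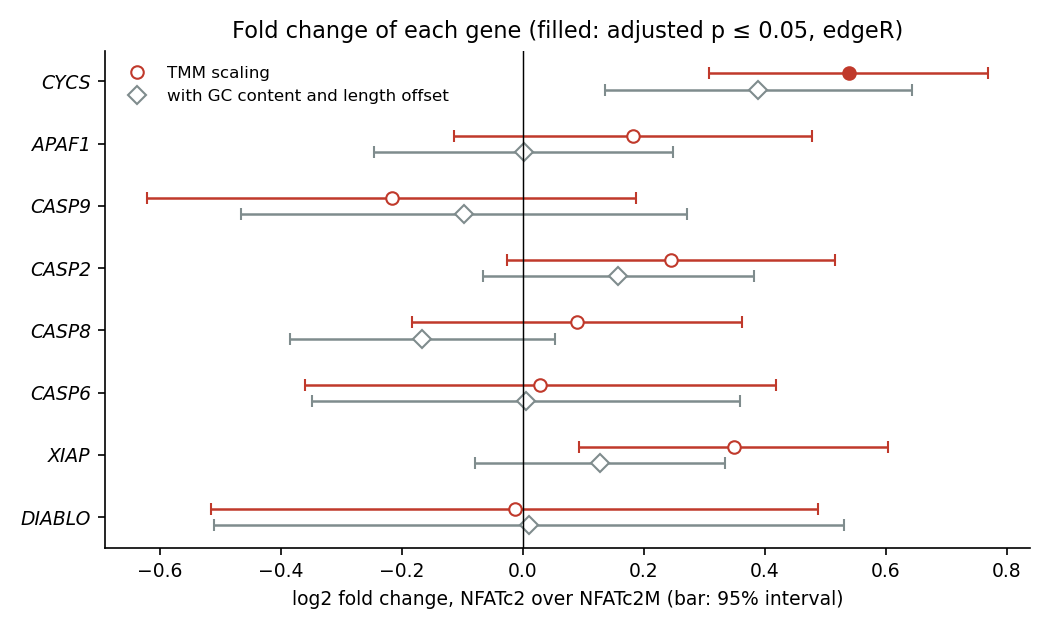
Log2 fold change of each gene, NFATc2 over NFATc2M, with its 95% interval (not adjusted for multiple testing), as circles under TMM scaling and as diamonds with the GC content and length offset; a filled symbol passed an adjusted p of 0.05 in edgeR. CYCS under TMM scaling (0.54) is the single filled symbol, and with the offset it lies at 0.39 and is open.

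Set per kilobase of exon, as a rough comparison of levels between genes, CYCS had the highest level, with a mean of 23.0 CPM per kb over the 4 libraries. CASP6 (5.87), XIAP (5.80), CASP8 (5.22) and CASP2 (4.86 CPM per kb) followed, and each of them overlapped its neighbour in this order across libraries. APAF1 came next with a mean level of 3.72 CPM per kb, CASP9 with 1.93 and DIABLO with 0.844. The step from CASP2 to APAF1 was small, since the lowest CASP2 library was at 4.30 and the highest APAF1 library at 4.29 CPM per kb. At the level of transcripts the apoptosome was thus uneven, in that CYCS was 27.2 CPM per kb in NFATc2 cells and 18.7 in NFATc2M cells, while CASP9 was 1.79 in NFATc2 cells and 2.08 in NFATc2M cells. The lengths are those of all annotated exons, which are longer than any 1 transcript. The genes that overlap DIABLO and the pseudogenes of CYCS were not corrected for, and their effect on these ranks was not tested.

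**Figure D3:**
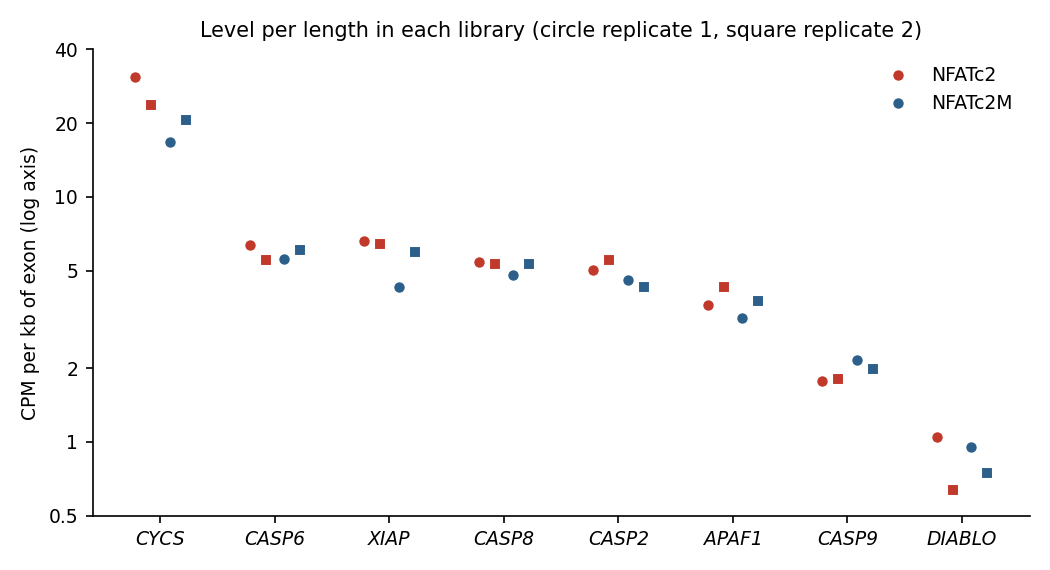
Level of each gene in CPM per kilobase of exon on a log axis, in NFATc2 (red) and NFATc2M (blue) libraries, with replicate 1 as circles and replicate 2 as squares. CYCS stands above the others (16.8 to 30.8 CPM per kb), CASP6, XIAP, CASP8 and CASP2 share 1 range (4.27 to 6.58), and DIABLO is the lowest (0.638 to 1.04). Levels are not corrected for genes that overlap DIABLO.

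**Figure D4:**
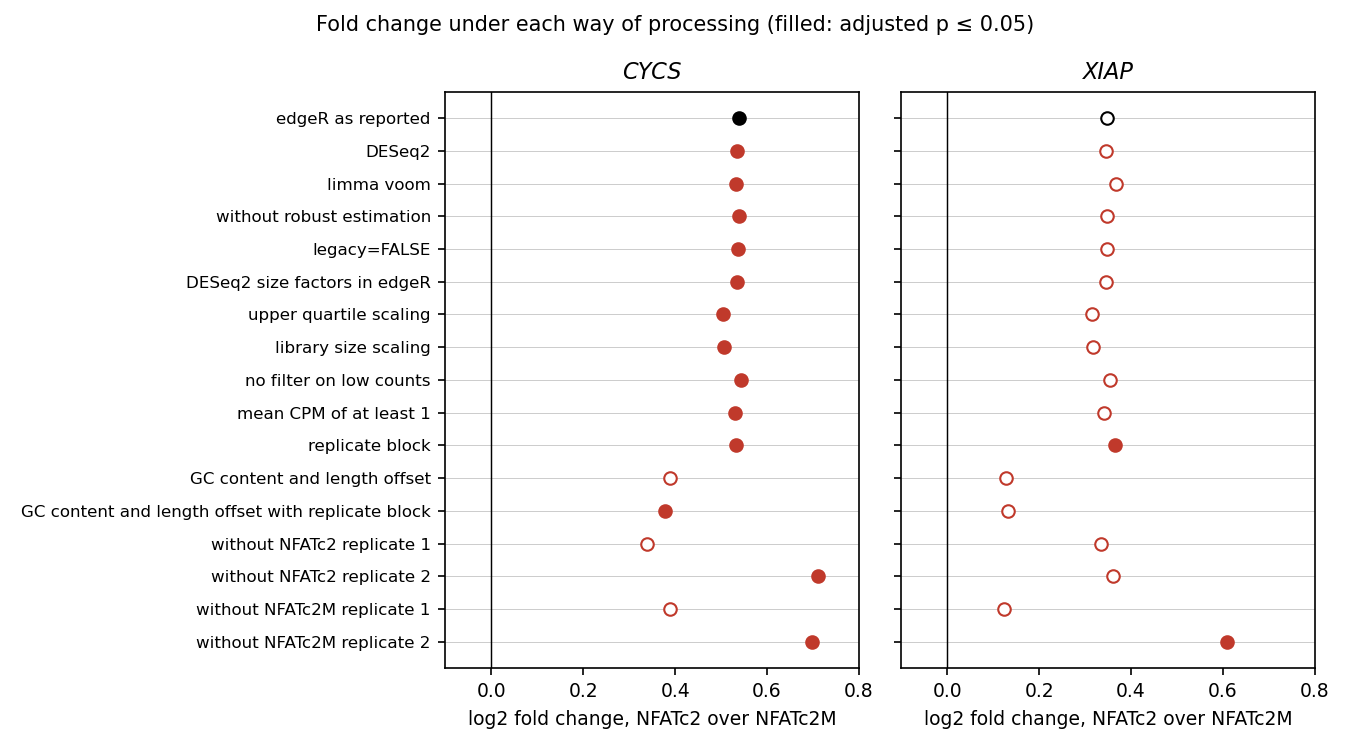
Log2 fold change of CYCS and XIAP, NFATc2 over NFATc2M, under the reported test (black) and 16 alternatives (red), where a filled point passed an adjusted p of 0.05. CYCS spans 0.34 to 0.71 and is open in 3 alternatives, and XIAP spans 0.12 to 0.61 and is filled in 2.

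The genes whose pattern over the 4 libraries lay nearest to that of CYCS were POMP, a chaperone of proteasome assembly, STON2, an adaptor of endocytosis, and ZNF148, a zinc finger transcription factor. Likeness was the Euclidean distance between log2 CPM values centred on each gene's mean, which was 0.035 for POMP, 0.040 for STON2 and 0.041 for ZNF148. POMP had 94.5 and 70.4 CPM in NFATc2 cells, against 51.3 and 63.4 CPM in NFATc2M cells. Like CYCS, it was highest in NFATc2 replicate 1 and lowest in NFATc2M replicate 1. With 4 points this is a description only.

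Around the 8 genes, 69 others of the same pathways were read from the fit, of which 64 were tested. In NFATc2 cells 5 were higher and 3 lower, which is 12.5% of those tested, against 8.64% of all genes, and the median log2 fold change was 0.063. The lists were chosen with earlier results of these data known, so their shares of calls describe them and test nothing. With the GC content and length offset, under which 3.49% of all genes passed (384 higher and 215 lower), 5 of the listed genes passed, each higher in NFATc2 cells. Of these, BIRC5 and OPA1 were among the 8 and HSPB1, LMNB1 and KRT18 were not. Those 3 are named because they made up the remainder and were chosen after their values were seen. The number of listed genes called was 4 without NFATc2 replicate 1, 2 without NFATc2 replicate 2, 0 without NFATc2M replicate 1 and 12 without NFATc2M replicate 2.

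Among the inhibitors, the list of IAP family members and antagonists had 9 genes tested, of which 3 were higher, 1 lower and 5 did not pass (median log2 fold change 0.074). That is 44.4% called, set against 8.64% of all genes tested, and with the GC content and length offset 1 of the list passed. As the list was chosen with earlier results of these data known, its share is a description and no test of the family. BIRC5 (survivin), an IAP family member that works in chromosome segregation, had 2999 and 3129 counts in NFATc2 cells, against 2056 and 2161 in NFATc2M cells. Its log2 fold change was 0.47 (edgeR adjusted p = 0.0023), and 0.54 with the GC content and length offset (adjusted p = 0.00028). GSPT1, a translation termination factor whose processed form binds IAPs, had a log2 fold change of 0.42 (edgeR adjusted p = 0.0041). BIRC6, a large IAP with ubiquitin-conjugating activity, had 0.32 (edgeR adjusted p = 0.041) and passed in 5 of 16 alternatives. BIRC7 (livin) was lower, with 128 and 171 counts in NFATc2 cells, against 286 and 225 in NFATc2M cells (log2 fold change -0.85, edgeR adjusted p = 0.0051). The calls of GSPT1, BIRC6 and BIRC7 were lost with the GC content and length offset. GSPT1 was also not called without NFATc2 replicate 2 or without NFATc2M replicate 1 (0.25 to 0.51 over its alternatives), BIRC7 not without NFATc2 replicate 1 or without NFATc2M replicate 1 (-1.02 to -0.49), and BIRC6 not when any 1 of the 4 libraries was left out (0.16 to 0.44). The listed genes that passed thus lay in both directions, and XIAP, at 0.35, was not among them. BIRC5 lost its call without either NFATc2 library and without NFATc2M replicate 1.

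Among the listed genes upstream of the initiators, TRADD and PIDD1 were called lower in NFATc2 cells. Neither call held with the GC content and length offset. TRADD, the adaptor of the TNF receptor, was the 1 gene called of 10 tested among death receptors, ligands and adaptors. That is 10%, set against 8.64% of all genes tested, with a median log2 fold change of 0.0055. TRADD had 620 and 557 counts in NFATc2 cells, against 860 and 851 in NFATc2M cells (log2 fold change -0.60, SE 0.14, edgeR adjusted p = 0.0027). PIDD1, the scaffold of the PIDDosome that activates CASP2, had 526 and 544 counts in NFATc2 cells, against 798 and 679 in NFATc2M cells (log2 fold change -0.53, SE 0.15, edgeR adjusted p = 0.013). Both NFATc2 libraries were below both NFATc2M libraries for each. The other PIDDosome gene, CRADD, did not pass. With the GC content and length offset the log2 fold change was -0.28 for TRADD (adjusted p = 0.18) and -0.23 for PIDD1 (adjusted p = 0.32). Both calls were also lost without NFATc2 replicate 2 and without NFATc2M replicate 1, and that of PIDD1 without NFATc2 replicate 1.

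On the mitochondrial side, OPA1, which fuses the inner membrane and keeps the cristae that hold cytochrome c, was the 1 gene called of 11 tested. That is 9.09%, set against 8.64% of all genes tested, with a median log2 fold change of 0.14. OPA1 had 1665 and 1905 counts in NFATc2 cells, against 1005 and 1196 in NFATc2M cells, with a log2 fold change of 0.63 (edgeR adjusted p = 0.00018). The call of OPA1 held in 15 of 16 alternatives, the GC content and length offset included (0.36, adjusted p = 0.023), and was lost without NFATc2M replicate 1. Among 15 caspase substrates PAK2, a kinase that caspases cleave into an active fragment, was the 1 called. That is 6.67%, set against 8.64% of all genes tested, with a median log2 fold change of 0.052. With the GC content and length offset, LMNB1 (0.31, edgeR adjusted p = 0.033) and KRT18 (0.43, edgeR adjusted p = 0.0030) were the 2 of that list that passed. PAK2 had 2301 and 2454 counts in NFATc2 cells, against 1445 and 1718 in NFATc2M cells (log2 fold change 0.52, edgeR adjusted p = 0.0011). With the offset it had 0.29 (adjusted p = 0.052), and it was not called without NFATc2 replicate 2 or without NFATc2M replicate 1.

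None of the 7 other caspases and caspase-like regulators tested passed in edgeR, DESeq2 or limma voom, while edgeR called 8.64% of all genes tested. In edgeR 1 of the 7 had an unadjusted p under 0.05, and their median log2 fold change was 0.089. The most highly counted was CFLAR, the catalytically inactive relative of CASP8 that restrains it. CFLAR had 2867 and 3084 counts in NFATc2 cells, against 2982 and 3000 in NFATc2M cells. None of the 10 apoptosome modulators tested passed in edgeR, DESeq2 or limma voom either, with 4 at an unadjusted p under 0.05 in edgeR and a median of 0.16. With the GC content and length offset 1 of them passed, HSPB1 (log2 fold change 0.27, edgeR adjusted p = 0.045, against -0.061 without the offset). The chaperones HSPA8 and HSP90AA1 had the highest counts in that list.

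**Figure D5:**
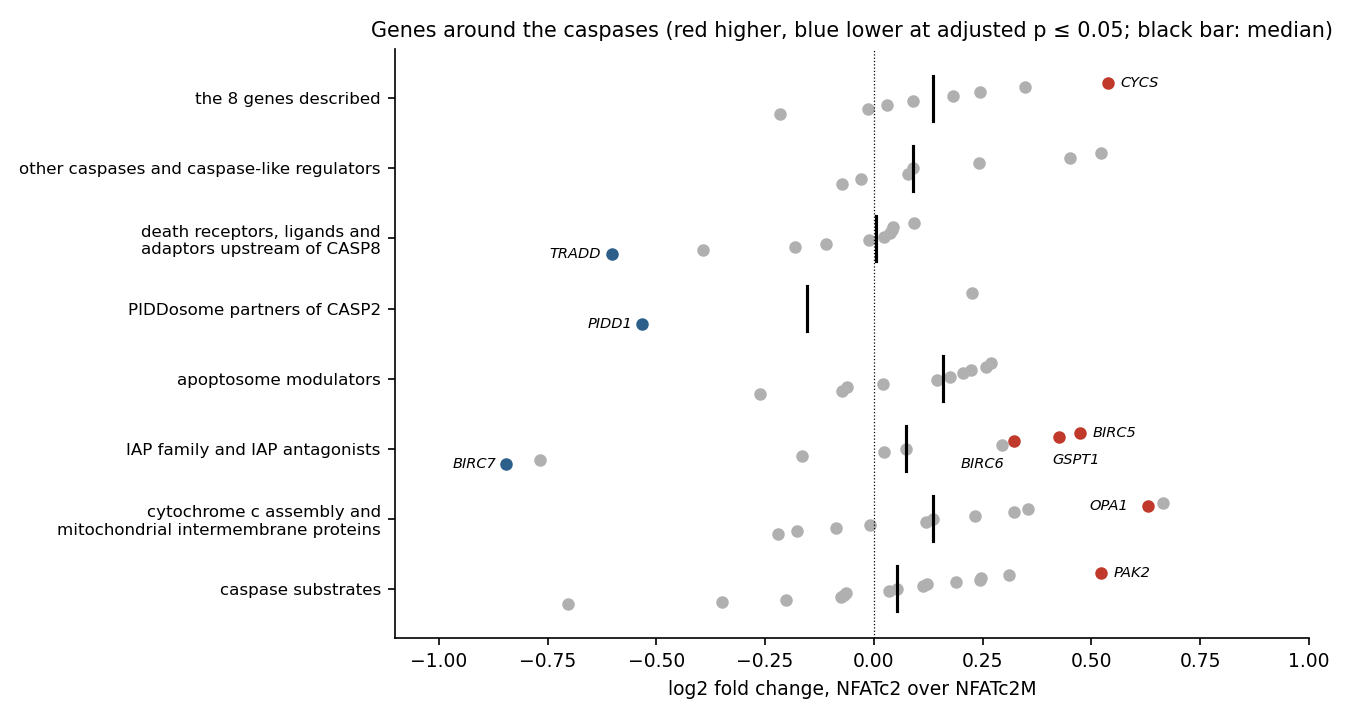
Log2 fold change, NFATc2 over NFATc2M, of each tested gene of the 8 described and of the 7 lists around them, with red for genes higher and blue for genes lower in NFATc2 cells at an adjusted p of 0.05, grey for the rest and a black bar at each median. Called genes lie on both sides, from BIRC7 (-0.85) to OPA1 (0.63), and the medians lie between -0.15 and 0.16.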

How the data were processed

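RNA-seq of poly(A)-captured RNA gave 4 libraries, 2 of NFATc2 and 2 of NFATc2M cells. The deposited values are gene counts that the authors made by aligning paired reads to GRCh38 with HISAT2, sorting with SAMtools 1.18 and counting with HTSeq 0.11.2 on Ensembl 94; the HISAT2 version and the strand setting are not given in the sources used here. HTSeq's summary categories held 56.4% to 57.4% of the totals and were left out. The authors' fold changes and p-values were not used, nor were 4 value columns without sample names.

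The test was run on the counts with edgeR 4.0.16 under R 4.3.3 (TMM, filterByExpr, quasi-likelihood F test with robust estimation, group as the only term), all 4 libraries together, and p-values were adjusted over all 17459 genes tested (Benjamini-Hochberg, threshold 0.05). The scripts were tested on simulated data. CPM used TMM library sizes. Intervals are SE times the t quantile, unadjusted. CASP9 was found by gene ID and the other 7 genes by name. Loci, lengths and GC content came from GENCODE 44 on GRCh38, promoters from RefSeq.

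The members and pathway lists were chosen with earlier results of these data known. From each list the text names the genes that passed, or, where none passed, the 2 with the highest mean count, and for each called member the 3 tested genes nearest in log2(CPM + 0.1). A gene that this rule would name is not reported here. The alternatives tried were DESeq2 1.42.0, limma 3.58.1 voom, other scalings, filters and edgeR settings, a replicate block, an offset for GC content and length (splines with 5 degrees of freedom) and leaving out each library. Replicates of a group differed beyond sampling noise (chi-square per degree of freedom 9.5 in NFATc2 and 9.0 in NFATc2M cells).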

Additional observations from a re-analysis of the deposited data

How the results depend on the processing

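Of 16 alternatives, 11 kept the number of genes called within 1.5 times 1508, and the exceptions were 599 with the GC content and length offset, 749 with that offset and the replicate block, 584 without NFATc2 replicate 1, 318 without NFATc2 replicate 2 and 73 without NFATc2M replicate 1. Without NFATc2M replicate 2 it was 1963, within that range, so the counts spanned 73 to 1963 when libraries were left out in turn. Of the 8 genes described, 0 were called with the offset and 0 to 2 when libraries were left out; of the listed pathway genes, 5 with the offset and 0 to 12 when libraries were left out. The log2 fold change of CYCS kept its direction in all 16 (0.34 to 0.71 when libraries were left out) and lost its call in 3, with the offset (0.39) and without NFATc2 replicate 1 (0.34) or NFATc2M replicate 1 (0.39). CASP2, CASP9 and XIAP kept their direction in every alternative run. CASP6 turned to -0.0057 under upper quartile scaling, -0.0020 under library size scaling and ranged from -0.069 to 0.12 when libraries were left out. CASP8 turned to -0.17 with the offset, with and without the block, APAF1 to -0.00098 with both, and DIABLO to 0.011 with the offset and ranged from -0.40 to 0.30 when libraries were left out. The cause of these changes was not tested. DESeq2 gave no adjusted p for CASP9 and DIABLO, which have 15 alternatives.

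With the replicate number as a block, 1759 genes and 2 of the 8 genes (CYCS and XIAP, XIAP at 0.37 with adjusted p = 0.044 in edgeR) were called. With the block and the offset together 1 of the 8 was called, CYCS. The deviations of same-numbered libraries correlated at r = 0.041 across 17459 genes. This does not settle whether same-numbered samples were handled together, which the labels do not state. DIABLO, CASP9 and CASP6 had the fewest counts of the 8 genes, 103 to 266 a library, and the largest standard errors.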
